A study of Mus musculus with 6 samples.

Results

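Glycolysis splits glucose into pyruvate in the cytosol, and its enzymes are present in every brain cell. The hypoxia response is run by hypoxia-inducible factors (HIFs), each a pair of an oxygen-labile alpha subunit (Hif1a or Epas1) and a stable partner (Arnt). Prolyl hydroxylases (the Egln genes) mark the alpha subunit in the presence of oxygen, and Vhl then targets it for destruction. When oxygen falls the alpha subunit persists, binds promoters at a short core sequence and raises the transcripts of enzymes, survival regulators and angiogenic factors. The transcripts of HIF-inducible genes are therefore a common read of tissue oxygenation, whereas the alpha subunits themselves are set mainly at the protein level.

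A list of 39 genes of glycolysis, oxygen sensing and the HIF response was taken, and every probe set annotated to exactly 1 of them was kept. This gave 79 probe sets for 36 of the 39 genes, among 18194 genes named singly on the array. Of the 79, 3 are array controls for Gapdh, and Gapdh had no other singly named probe set. Bnip3l shared its probe sets with a pseudogene, and no probe set was listed for Eno1 or Gpi1. The levels of these 3 genes are therefore not analysed here. Ero1l is listed under its current symbol, Ero1a.

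The data are 6 Affymetrix arrays of whole-brain RNA from E18.5 mouse embryos on a C57/bl6 background, 3 labelled wild type and 3 labelled Foxf2 mutant, with no treatment. Foxf2 is a forkhead transcription factor of brain pericytes and other mesenchyme, and the comparison asks whether transcripts of fuel use and oxygen response differ when it is mutated. The labels do not describe the allele, and they do not say whether an array held 1 embryo or several or whether embryos shared a litter. The p-values therefore measure the spread between these 6 samples. Levels are linear MAS5 intensities. Differences are given as log2(intensity + 16), mutant minus wild type, from limma with Benjamini-Hochberg adjustment over 27022 probe sets above a filter on dim signals.

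All 13 of 13 neuronal and 11 of 11 astrocyte and radial glia markers lay above the filter. The filter keeps most probe sets, and 15 of 15 endothelial markers also passed, so this does not by itself tell brain from other tissue. Foxf2 was dim and below the filter, with a mean of 19.0 ± 5.33 in the wild-type arrays and of 6.32 ± 2.61 in the mutant ones (SD, n = 3 each). The groups did not overlap (exact permutation test, two-sided p = 0.1). A second Foxf2 probe set lay near the floor, at 2.02 ± 2.19 and 1.17 ± 1.39 (SD, n = 3 each), and its groups overlapped. Several arrays stood apart. Mutant array 3 carried skeletal muscle transcripts: the 11 muscle markers above the filter (of 15 listed) summed to 2504 there and to 138 to 163 on the other 5 arrays. Wild-type array 3 carried pituitary transcripts (4 of 8 markers above the filter, summing to 1985, against 277 on mutant array 3 and 39.6 to 59.5 on the other 4). The filter takes the mean of all 6 arrays, so a marker can pass through the 1 array where it is high. These sums are therefore descriptions and not tests. The muscle marker Acta1, which is not that dim elsewhere, read 741 on mutant array 3 and 51.1 to 77.0 on the other 5. Mutant array 2 had the Y-linked Eif2s3y at 259.6, against at most 2.12 elsewhere. Xist, a second sex marker, was lowest on mutant array 2. It read 1002 on mutant array 1, 2399.6 on mutant array 3 and 1956 to 2186 in wild type. Sex markers thus differed between arrays of the mutant group, and the part of sex in the other differences was not tested.

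No member differed between genotypes past the threshold of an adjusted p of 0.05. Of the 76 member probe sets that are not controls, 72 passed the filter, and 0 of the 72 were called. Of all tested probe sets 0.389% were, 0.366% as higher and 0.0222% as lower in the mutant. The smallest adjusted p among the members was 0.17. At an unadjusted p under 0.05, 4 of the 72 stood out, against 13.6% of all tested probe sets. Of the 4, 1 was higher and 3 were lower, against 7.78% and 5.8%. With median centring in place of the deposited scaling, which moved the median of all tested probe sets from -0.01 to -0.06, this count was 12, against 16.6%. Of the 12, 1 was higher and 11 were lower, against 5.08% and 11.5%. The groups did not overlap for 7 of the 72, against 20.3% of all tested probe sets. Of the 7, 2 were higher and 5 lower, against 10.9% and 9.38%. With the deposited scaling each of these member shares lay below the background. With median centring the share of lower members lay above it and that of higher members below it. The exact permutation p of a single value cannot go below 0.1 with 3 arrays against 3.

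Each gene was then read through its brightest probe set, which left 34 genes: 14 glycolytic enzymes, 7 oxygen-sensing genes and 13 HIF-inducible genes. In 32 of the 34, the 95% interval of the difference lay within 1.5-fold in both directions. The exceptions were Kdm3a and Adm. This bound is on the log2 scale with the constant added to the intensity, which understates changes of dim genes. For dim genes such as P4ha2 it is therefore not a bound on the fold change of the intensity itself. All 14 glycolytic enzymes and all 7 sensing genes were among the 32. Of the 34 genes, 26 read lower in the mutant (76.5%), where 51.7% of all 12577 genes did. With median centring the numbers were 29 of 34 and 64.6%. The count moved with single arrays. It was 20 of 34 without mutant array 3 (58.8%, against 51.1% of all genes), 21 without wild-type array 2 (61.8%, against 50.2%) and 23 without wild-type array 1 (67.6%, against 52.2%). It was 25 without mutant array 1 (73.5%, against 50.8%), 26 without wild-type array 3 (76.5%, against 53.0%) and 28 without mutant array 2 (82.4%, against 52.8%). With the filter at the 60th percentile, which keeps brighter genes, it was 25 of 32 (78.1%, against 56.9%).

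**Figure D1:**
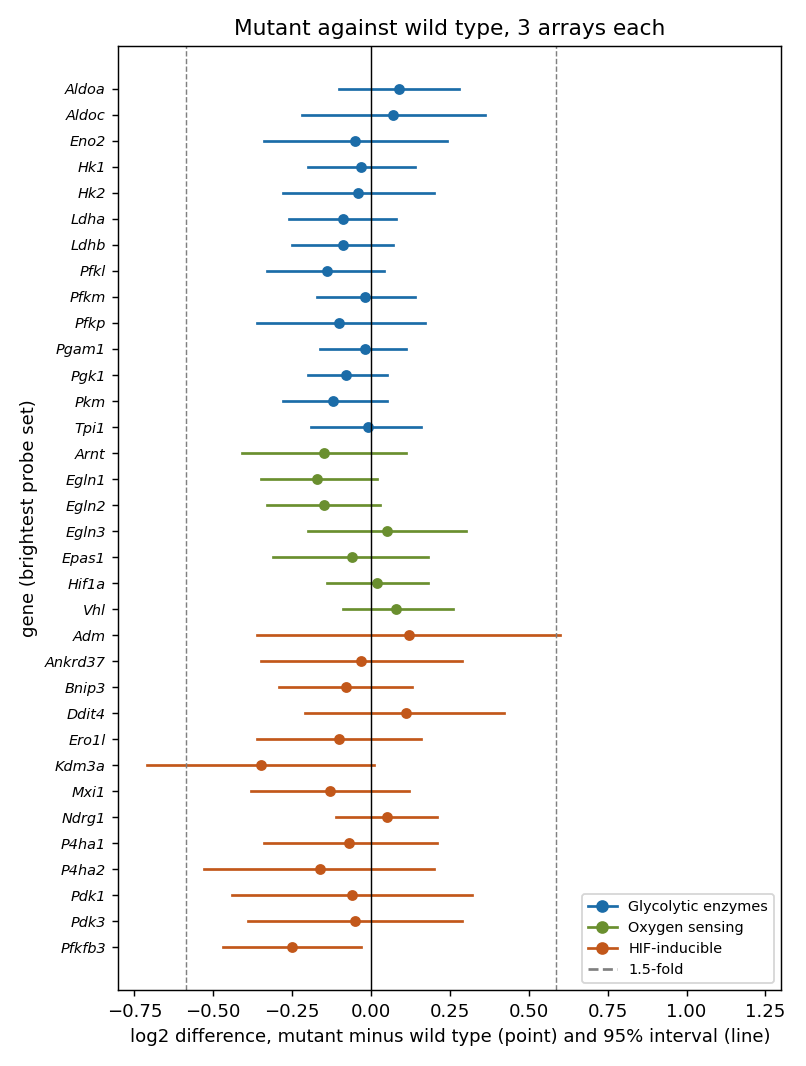
Log2 difference between mutant and wild type (x axis, point) with its 95% interval (line) for the brightest probe set of 34 genes (y axis), from 3 arrays per genotype, coloured by role, with dashed lines at 1.5-fold. All intervals but those of Kdm3a and Adm lie inside the dashed lines, and the interval of Pfkfb3 alone leaves out 0. The dashed lines are on the scale with the constant added to the intensity, which understates changes of dim genes.

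HIF binds DNA at a core written ACGTG or GCGTG, and the promoters of the list can be searched for it. Both cores were searched on both strands in RefSeq promoter windows of GRCm38.p6, for the 36 listed genes that have one. A window runs from 250 bases before to 50 after each start site. These 36 genes include Eno1 and Gpi1, which have no probe set, and leave out Epas1, Ndrg1 and Bnip3l. ACGTG lay in 12 of 19 windows of HIF-inducible genes (63.2%), in 4 of 7 of sensing genes (57.1%) and in 12 of 28 of glycolytic genes (42.9%), against 19.6% of all 32851 windows. GCGTG lay in 57.9%, 57.1% and 53.6% of them, against 32.4%. Both cores hold CG and the windows of the list are richer in G and C, with medians of 58.2% to 68.0% against 52.7%, so base composition differs along with the match. ACGTG read on both strands overlaps itself in CACGTG, and such a window was counted once. A match is a description of the letters and not a bound site. The windows below hold the core upstream of genes whose values are given in this text, along the strand of the gene, with 1 core in capitals. Any further match in the same stretch is left in lower case, as in that of Ldha. CACGT is ACGTG on the other strand.
Pgk1, chrX:106186932-106186972, + strand: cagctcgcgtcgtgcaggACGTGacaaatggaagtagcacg
Ldha, chr7:46845739-46845779, + strand: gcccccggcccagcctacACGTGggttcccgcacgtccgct
Hk2, chr6:82774484-82774524, - strand: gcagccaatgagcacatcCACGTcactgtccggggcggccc
Egln1, chr8:124949300-124949340, - strand: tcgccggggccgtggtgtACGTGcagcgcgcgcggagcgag
Pfkfb3, chr2:11553967-11554007, - strand: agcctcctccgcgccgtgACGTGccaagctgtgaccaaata
Bnip3, chr7:138909591-138909631, - strand: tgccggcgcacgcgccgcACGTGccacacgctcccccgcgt
Mxi1, chr19:53329329-53329369, + strand: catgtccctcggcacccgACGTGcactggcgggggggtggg
Ddit4, chr10:59951935-59951975, - strand: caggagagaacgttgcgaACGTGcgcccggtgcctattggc
No window of Pdk1, Kdm3a or Adm held ACGTG. The other core, GCGTG, lay in 1 of the 2 windows of Pdk1, in 1 of the 3 of Kdm3a and in the single window of Adm, and the window of Vhl held neither.

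The glycolytic enzymes had the lowest spread of the 3 roles, by little against the sensing genes. Their median log2 difference was -0.04, with single genes from -0.14 to 0.09, against a median of -0.01 over all genes. The median residual SD of the 14 genes within genotypes was 0.0948 log2 units. It was 0.101 in the sensing genes, 0.207 in the HIF-inducible genes and 0.122 over all genes. Most of the 14 also read brighter than the HIF-inducible genes, and the part of brightness in the spread was not tested. Pgk1, which makes the first ATP of the pathway, read 1472, 1542 and 1500.2 in wild type and 1422, 1479 and 1381 in mutants. The groups overlapped, and the log2 difference was -0.08 with an interval of -0.20 to 0.05.

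The hexokinases commit glucose to the cell by phosphorylating it. Hk1, the form of mature brain, averaged 510.2 ± 27.0 and 499 ± 36.7 (SD, n = 3) in wild type and mutant. Hk2, the form that HIF can raise, averaged 51.3 ± 3.16 and 49.6 ± 1.04 (SD, n = 3). Both intervals included 0, at -0.20 to 0.14 for Hk1 and -0.28 to 0.20 for Hk2. The phosphofructokinases catalyse the main controlled step. Pfkl, the liver-type subunit, read 343, 337 and 334 in wild type and 312, 331 and 273 in mutants. All 3 mutant arrays lay below all wild-type arrays, yet the log2 difference of -0.14 did not pass (adjusted p = 0.473) and was -0.07 without mutant array 3. The other two Pfkl probe sets had -0.10 and 0.17, with overlapping groups. The muscle-type Pfkm had a log2 difference of -0.02 and the platelet-type Pfkp of -0.10.

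Aldolase splits the 6-carbon sugar. Aldoa, the widely expressed form, gave the smallest unadjusted p of the list, on 1 of its 5 probe sets. That probe set read 346, 325 and 328 in wild type and 380.3, 404 and 404 in mutants. The groups did not overlap, and the log2 difference was 0.24 with an adjusted p of 0.17. The other 4 probe sets of Aldoa overlapped between genotypes and had differences from -0.17 to 0.09. All 5 carry the suffix _x_at, which marks probes that can match other transcripts. Aldoc, the form of astrocytes and Purkinje cells, had 0.07 on its brightest probe set.

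Gapdh was read through 3 control probe sets laid along its transcript, fitted with the controls kept in. The control for its 5′ end read 4426, 4684 and 4456 in wild type and 4725, 4792 and 4908 in mutants. The control for the middle read 3826, 4062 and 3954, then 4122, 4188 and 4216. Both were higher in every mutant array by little, with log2 differences of 0.09 and 0.08 and adjusted p of 0.506 and 0.536. The control for the 3′ end averaged 3282 ± 7.46 and 3297 ± 61.4 (SD, n = 3), and its difference was 0.01.

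Further down the pathway, Tpi1, Pgam1, the neuronal enolase Eno2 and the pyruvate kinase Pkm had differences of -0.01, -0.02, -0.05 and -0.12. Lactate dehydrogenase interconverts pyruvate and lactate. Ldha, the subunit that favours lactate and a known HIF target, read 1551, 1702 and 1532 in wild type and 1473, 1634 and 1391 in mutants, which overlap. Ldhb, the subunit that favours pyruvate, read lower on all 4 of its probe sets. The lowest of these read 861, 821 and 912 in wild type and 615, 816 and 742 in mutants. Its groups did not overlap and its log2 difference was -0.26, not past the threshold (adjusted p = 0.303). It was -0.15 without mutant array 1. A second Ldhb probe set read 624, 682 and 717, then 581, 568 and 630.3. These groups overlapped slightly, with a difference of -0.18 (adjusted p = 0.329), and the brightest Ldhb probe set had -0.09 with overlapping groups.

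**Figure D2:**
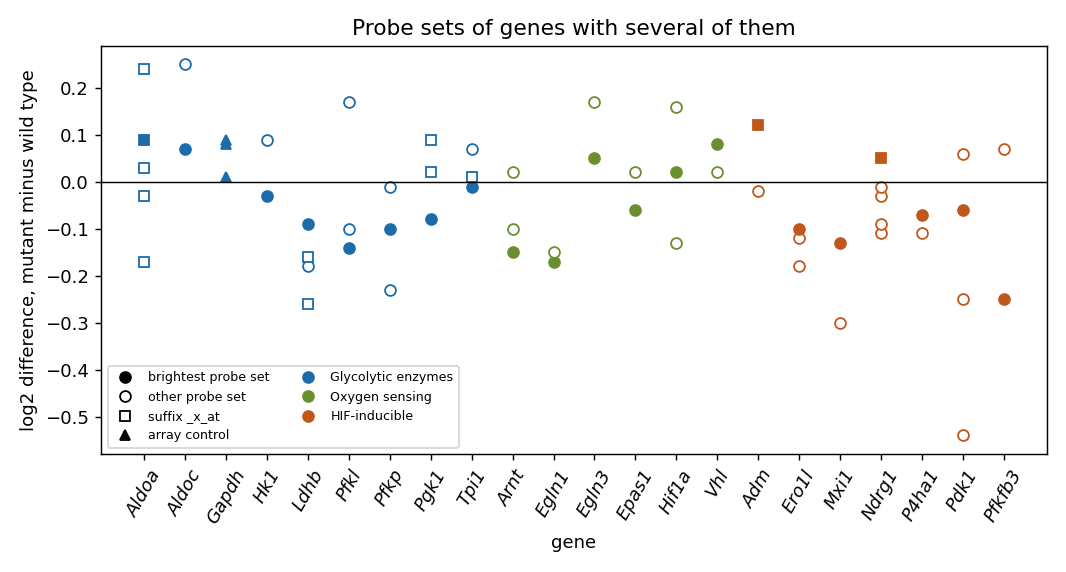
Log2 difference between mutant and wild type (y axis) for every tested probe set of the genes that have several (x axis), with the brightest filled, _x_at probe sets as squares and the Gapdh array controls as triangles. The 4 probe sets of Ldhb all lie below 0, whereas those of Aldoa run from -0.17 to 0.24 and those of Pdk1 from -0.54 to 0.06.

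Probe sets of a gene often differed in sign. Among the 21 genes with several tested probe sets, 12 had differences on both sides of 0. The suffix _x_at was carried by 12 of the 72 member probe sets. These 12 had a median difference of 0.02, and the other 60 of -0.07. Over all tested probe sets the same medians were 0.10 and -0.01.

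The oxygen-sensing genes had a median log2 difference of -0.06. Hif1a, the broadly expressed alpha subunit, read 979, 947 and 963 in wild type and 1067, 897 and 975 in mutants on its brightest probe set. The groups overlapped, and the log2 difference was 0.02 (interval -0.14 to 0.18). This near-zero difference turned to -0.03 with median centring. The other tested Hif1a probe sets separated the genotypes in opposite directions. One read 148, 149 and 166 in wild type and 169, 177 and 176 in mutants, a difference of 0.16 with an adjusted p of 0.426. The other read 124, 114 and 123, then 112, 110 and 102, a difference of -0.13 with an adjusted p of 0.528.

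Epas1, the alpha subunit best known from endothelium, averaged 283 ± 23.7 in wild type and 271 ± 39.1 in mutants (SD, n = 3), a difference of -0.06. The summed signal of 15 endothelial markers was 1599 to 1666 in wild type and 1239 to 1390.4 in mutants. Bright markers weigh more in such a sum, among them Cldn5 (means of 380.3 in wild type and 278 in mutants) and Kdr (153 and 112). Gene by gene the 15 markers had no common direction, with 7 higher, 8 lower and a median log2 difference of -0.002. Of the 15, 3 had an unadjusted limma p under 0.05, all lower. Of all tested probe sets 13.6% did in either direction and 5.8% as lower. The groups did not overlap for 6 of the 15, 5 lower and 1 higher, against 20.3% in either direction, 9.38% lower and 10.9% higher. The part of these markers in the Epas1 value was not tested. In whole-brain RNA, fewer cells of a type and less RNA per cell cannot be told apart. Arnt, the shared partner, had a difference of -0.15, with overlapping groups.

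Egln1, the main oxygen sensor, read 334, 328 and 392 in wild type and 319, 314 and 298 in mutants. Every mutant array lay below every wild-type array, by a log2 difference of -0.17 that did not pass (adjusted p = 0.419). The difference was -0.09 without wild-type array 3, which held the highest value. The second Egln1 probe set had -0.15 and overlapped. Egln2, a related hydroxylase, had -0.15 on its single probe set, also with overlap. Egln3, which HIF itself induces, read 64.4, 60.2 and 64.9 in wild type and 74.1, 65.4 and 58.6 in mutants. Its difference of 0.05 turned to -0.01 with median centring. Vhl, the substrate receptor of the ligase that destroys HIF, read 217, 198 and 222, then 225, 216 and 237, with overlap and a difference of 0.08.

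The HIF-inducible genes had a median log2 difference of -0.07, so that they lay 0.02 log2 units below the glycolytic enzymes. Per array, their median minus that of the glycolytic enzymes was 0.01, -0.13 and 0.11 in wild type and 0.09, 0.06 and -0.25 in mutants. The genotypes overlapped, and the lowest value was that of mutant array 3. Without mutant array 3 the median of the HIF-inducible genes was 0.05, and the sign of the comparison with the glycolytic enzymes turned from -0.02 to 0.09. With Hk2, Aldoa, Pgk1 and Ldha, which HIF is known to raise, moved into the inducible group, its median stayed at -0.07.

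Pfkfb3 makes the activator of phosphofructokinase and is strongly HIF-inducible. It was the single HIF-inducible gene whose groups did not overlap, with 158, 151 and 172 in wild type and 146, 135 and 117 in mutants. Its log2 difference was -0.25 with an interval of -0.47 to -0.03, and it did not pass (adjusted p = 0.316, with adjusted p from 0.187 to 0.577 over the alternatives). Without mutant array 3 it was -0.17. Its dimmer probe set had 0.07, with overlap. Kdm3a, a histone demethylase induced by HIF, had the lowest brightest-probe-set difference of the list. It read 487, 349.6 and 463 in wild type and 419, 313 and 279.7 in mutants. The groups overlapped, and the difference was -0.35 with an interval of -0.71 to 0.01 (adjusted p = 0.377). Without mutant array 3 it was -0.23.

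Pdk1, which keeps pyruvate out of the mitochondrion by inhibiting pyruvate dehydrogenase, varied widely between arrays of 1 genotype. Its 4 probe sets had residual SDs of 0.28 to 0.648 log2 units, above those of 92.9% to 99.5% of all tested probe sets. The brightest read 157, 147 and 208 in wild type and 156, 205 and 129 in mutants. The most variable read 75.2, 107 and 151, then 119, 202 and 55.5. On all 4 probe sets mutant array 3 was the lowest of 6, and mutant array 2 or wild-type array 3 the highest. The genotype differences of these probe sets ran from -0.54 to 0.06, and none passed. The lowest was -0.27 without mutant array 3. Pdk3, an X-linked isoform, read 59.4, 80.3 and 61.4, then 66.0, 76.6 and 50.6, with overlap.

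**Figure D3:**
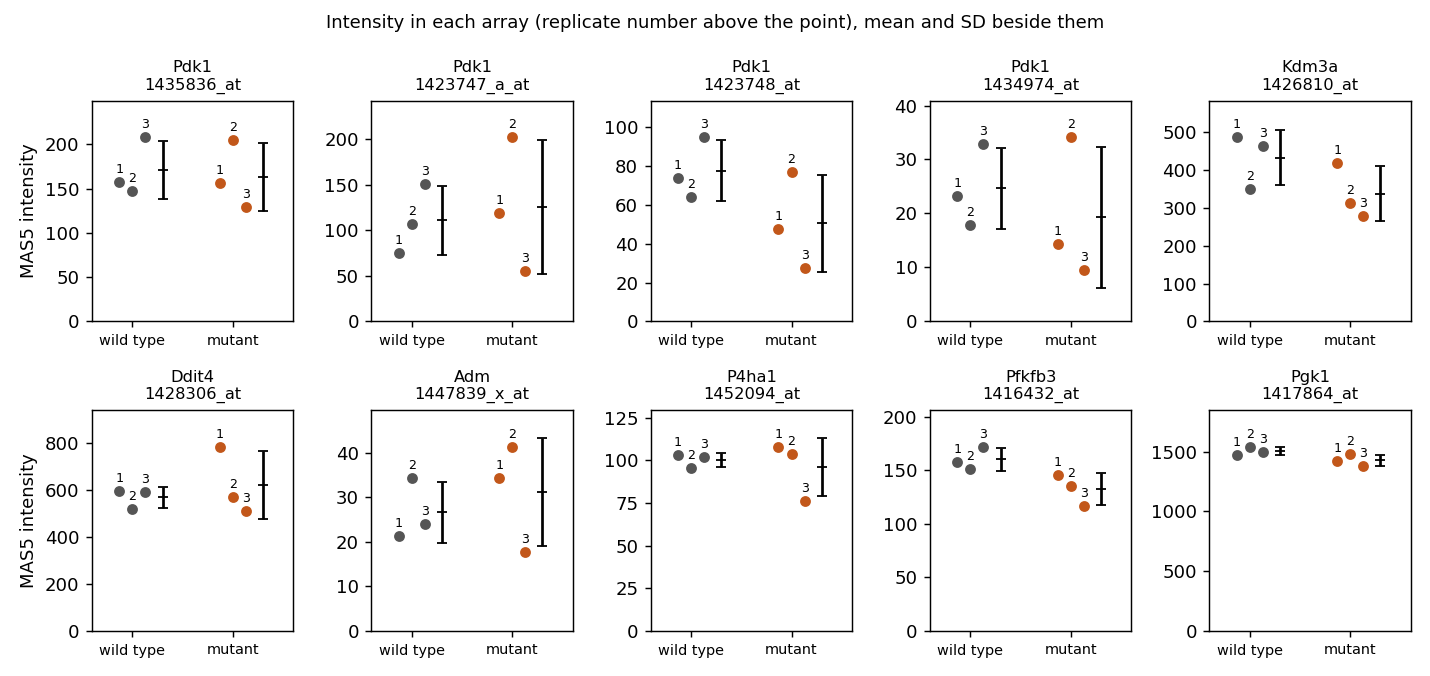
MAS5 intensity (y axis, from 0) in each array for 10 probe sets, wild type in grey and mutant in orange, with the replicate number above each point and the mean and SD of 3 arrays beside them. Mutant array 3 is the lowest of the 6 arrays in all panels shown, which were chosen after the values were seen.

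The remaining HIF-inducible genes act in vessel tone, cell survival, matrix folding and growth control. Adm, the vasodilator adrenomedullin, was dim, at 21.4, 34.4 and 24.1 in wild type and 34.4, 41.4 and 17.7 in mutants. Ddit4, an inhibitor of mTOR signalling, read 593, 517 and 589.9 in wild type and 782, 569 and 509 in mutants, so that mutant arrays held both the highest and the lowest value. Ankrd37 read 162, 121 and 144, then 149.9, 159.6 and 111. P4ha1, a collagen prolyl hydroxylase, read 103, 95.6 and 102 in wild type and 108, 104 and 76.4 in mutants. In these 4 genes the mean difference between genotypes was small, from -0.07 to 0.12, and mutant array 3 was the lowest of the 6 arrays.

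Bnip3, a mitophagy receptor, averaged 478 ± 21.1 in wild type and 452 ± 59.9 in mutants (SD, n = 3). Mxi1, an antagonist of Myc, had -0.13 on its brightest probe set and -0.30 on the other. Ero1l, an oxidase of protein folding in the endoplasmic reticulum, had -0.10 to -0.18 on 3 probe sets. P4ha2, a second collagen prolyl hydroxylase, had -0.16, and Ndrg1, a stress-response gene, had 0.05 on its brightest probe set and -0.11 to -0.01 on the other 4. Car9, the tumour-associated carbonic anhydrase, read 1.19 to 12.2 and was too dim to be tested.

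**Figure D4:**
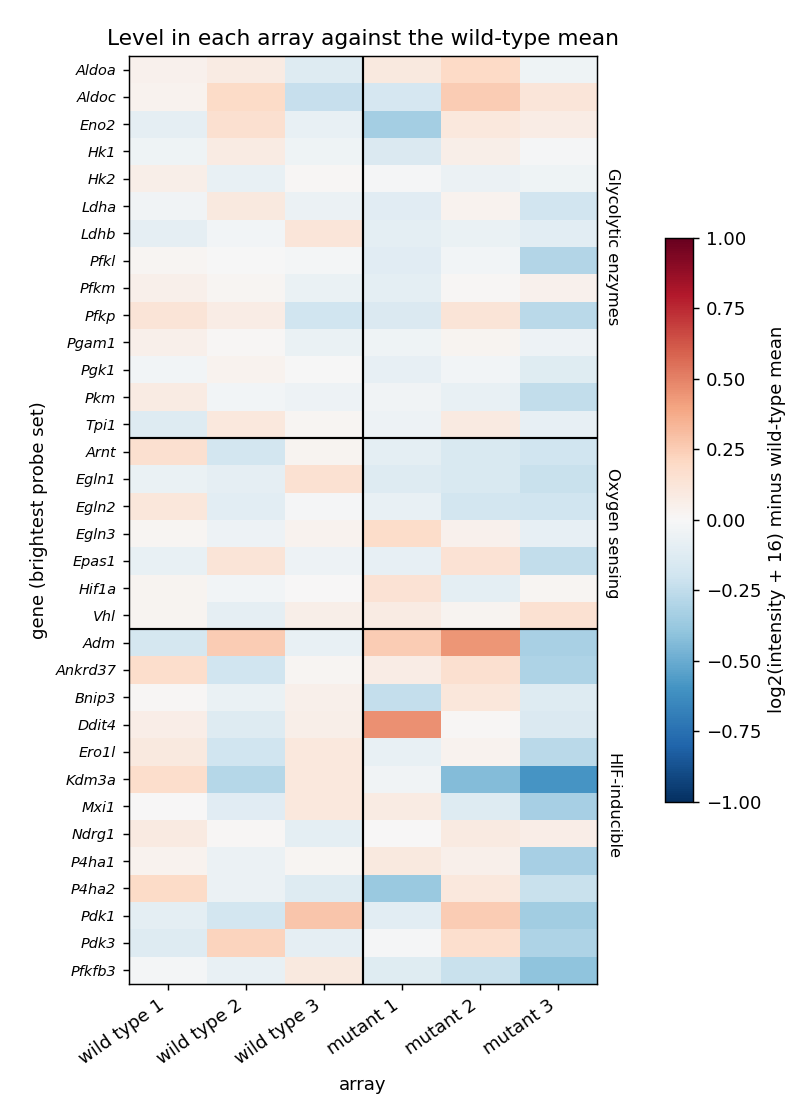
Level of 34 genes (rows, grouped by role) in each of 6 arrays (columns), as log2(intensity + 16) minus the wild-type mean of the gene, blue below and red above it. The column of mutant array 3 is blue for most HIF-inducible genes, 10 of 13 having their lowest value of the 6 arrays there.

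The HIF-inducible genes also differed within the mutant group, where 1 array was singled out after its values were seen. In mutant array 3, 12 of the 13 HIF-inducible genes read below the mean of the other 2 mutants, with a median of -0.36 log2 units, and 8 of the 13 (61.5%) read lower by more than 0.3. Over all genes 49.6% read below in that array, and 6.54% by more than 0.3. It held the lowest value of the 6 arrays for 10 of the 13 HIF-inducible genes, 5 of the 7 sensing genes and 6 of the 14 glycolytic enzymes, against 20.6% of all genes. The exception among the 13 was Ndrg1, at 0.02. The falls were deepest in Adm (-0.68), Pdk1 (-0.43) and Ankrd37 (-0.42) by brightest probe set, followed by P4ha1 (-0.40) and Pdk3 (-0.39). The glycolytic enzymes shifted by a median of -0.06 in the same array and the sensing genes by -0.08. Adm, Pdk1 and Kdm3a, whose promoter windows lack ACGTG but hold GCGTG in 1 window each, read low in mutant array 3. Mxi1, with ACGTG in 2 of its 3 windows, and Ddit4, with it in its 1 window, also read low there. The part of either core was not tested. Without this array the median residual SD of the HIF-inducible genes was 0.159. The pattern was noticed in the data and has no test, since it is a single array.

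The shift did not depend on the scaling tried. The median was -0.32 with median centring, -0.35 with quantile normalization and -0.33 over all 26 HIF-inducible probe sets. The same reading for the other arrays gave medians of 0.06, -0.12 and 0.08 in wild type and 0.15 and 0.20 in mutant arrays 1 and 2. Those of the mutants mirror array 3 in part, because it enters their comparison. Mutant array 3 is also the array with muscle transcripts, and its pituitary sum was above that of the other mutants (277 against 39.6 and 51.7). The part of either in the shift was not tested. The muscle forms of glycolytic enzymes were raised in it, with Eno3 at 96.2 against 30.0 to 37.5 elsewhere and Pgam2 at 34.8 against 2.12 to 9.51. Erythroid signal (3 of 10 listed markers above the filter) was second lowest there, inside the range of 79.5 to 323 on the other arrays. Neuronal markers summed to 19949, inside the range of 19494 to 20093.

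**Figure D5:**
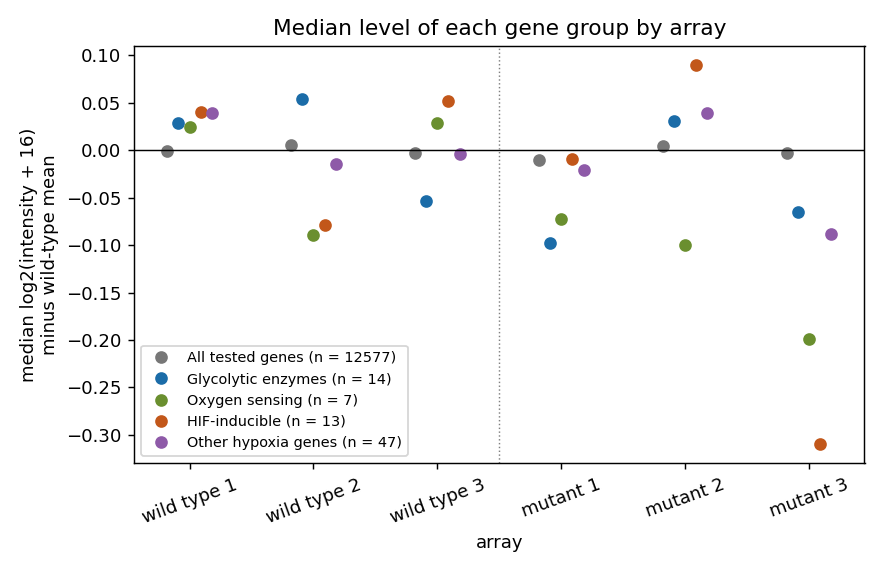
Median of log2(intensity + 16) minus the wild-type mean of each gene (y axis) in each of 6 arrays (x axis), for all tested genes, the 3 groups of members and other hypoxia genes. The HIF-inducible median is -0.31 in mutant array 3 and between -0.08 and 0.09 in the other 5 arrays.

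Other genes of these pathways were read from wider lists, by brightest probe set, against 0.223% of all genes called and 13.6% at an unadjusted p under 0.05. Of 47 further hypoxia genes above the filter (of 55 listed), 0 passed the threshold and 6 had an unadjusted p under 0.05, 3 higher and 3 lower. Their median difference was -0.04. The smallest p was that of Wsb1, a hypoxia-induced ubiquitin ligase adaptor, which read 390.2, 418 and 537 in wild type and 672, 736 and 830 in mutants. Its groups did not overlap, and the log2 difference of 0.72 had an adjusted p of 0.0531. Without wild-type array 3, which held the highest wild-type value, the difference was 0.85 and passed (adjusted p = 0.0384), and with any other array left out the adjusted p ran from 0.0847 to 0.214. Next came Ak3, a mitochondrial adenylate kinase, with 0.22 (adjusted p = 0.213) and with -0.20 and 0.10 on its other probe sets. Vegfa, the angiogenic growth factor, read 134, 163 and 172, then 184, 176 and 129. Slc2a1, the glucose transporter of the barrier, read 712, 586 and 731, then 812, 735 and 640. In both, mutant array 3 was the lowest of the mutants. In that array, 33 of the 47 further hypoxia genes (70.2%) read below the mean of the other 2 mutants, with a median of -0.14.

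Of 21 further genes of glycolysis and pyruvate oxidation above the filter (of 29 listed), 0 passed, 2 were higher at an unadjusted p under 0.05 and the median was 0.09. The first 2 by p were Adpgk, an ADP-dependent glucokinase, with 0.47 (adjusted p = 0.273) and Pdp1, the phosphatase that activates pyruvate dehydrogenase, with 0.24 (adjusted p = 0.294). Each had -0.24 on its other probe set. For Pdp1 that other probe set had the smaller unadjusted limma p, 0.0088 against 0.0262. For Adpgk it had the larger, 0.142 against 0.0206. Of 8 genes of the pentose phosphate pathway (of 9 listed), which draws on the first sugar phosphate of glycolysis, 0 passed and 4 had an unadjusted p under 0.05. Pgd, which makes NADPH, read 533, 531 and 518 in wild type and 460.2, 463 and 464 in mutants. Its groups did not overlap, with a log2 difference of -0.18 (adjusted p = 0.223), and its 3 other probe sets ran from -0.32 to -0.08. Tkt, transketolase, had 0.23 on its brightest probe set (adjusted p = 0.253) and -0.26 and -0.02 on the others. The unadjusted limma p was 0.0125 for the -0.26 and 0.0167 for the 0.23. The brightest probe sets of Adpgk, Pgd and Tkt carry the suffix _x_at, which had a median difference of 0.10 over all tested probe sets.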

How the data were processed

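The deposited values are intensities from MAS5, per the submitters' processing notes. No version of it is given in the sources used here. The deposited intensities had been scaled so that every array has the same trimmed mean. They were not normalized again, and such scaling hides a change in total RNA. Of 45101 probe sets, 64 controls were left out. Annotation named 1 gene for 34945 of the other 45037, several for 932 and none for 9160. Values were analysed as log2(intensity + 16), which understates changes of dim genes, in R 4.3.3 with limma 3.58.1 (lmFit, eBayes with trend). Benjamini-Hochberg adjustment covered probe sets whose mean intensity reached 13.5, the 40th percentile. The fit was tested on simulated data.

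Groups and replicate numbers came from the labels. Members and lists were chosen with earlier results of these data known. Any member could be named. Values per array were given for probe sets with an unadjusted p under 0.05 or groups that do not overlap and for Hif1a, Vhl and Egln3. Those of Pgk1, Ldha, Gapdh, Kdm3a, Pdk1, Pdk3, Adm, Ddit4, Ankrd37, P4ha1, Vegfa and Slc2a1 were added after they were seen. From the other lists the 2 genes with the smallest p were named. Precision is limited by the number of arrays. Sequences are from RefSeq, GRCm38.p6, and the build behind the array is not given in the sources used here.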

Additional observations from a re-analysis of the deposited data

How the results depend on the processing

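The count of 0 called member probe sets was the same under every alternative run: offsets of 1 and 64, no filter, a filter at the 60th percentile, median centring, quantile normalization, no variance trend, array weights, the replicate block, controls kept, 1 probe set per gene and each array left out. Over all tested probe sets the 105 calls became 181 with offset 1, 64 with offset 64, 52 without filter, 168 with the 60th percentile, 56 with median centring, 0 without trend, 220 with the replicate block, 12 with 1 probe set per gene and 0 to 34 with an array left out (0 without wild-type array 1 or 2 or mutant array 2 or 3). The 4 member probe sets at an unadjusted p under 0.05 became 12 with median centring, 2 without trend, 7 with the replicate block, 1 with 1 probe set per gene, and 2 to 6 with an array left out. The median of the sensing genes was 0.019 over every tested probe set, and -0.136 to 0.023 with an array left out. With an array left out the median of the glycolytic enzymes ran from -0.09 to -0.03 and that of the HIF-inducible genes from -0.16 to 0.05. The Hif1a difference of 0.02 turned to -0.03 with median centring and ran from -0.04 to 0.08 with an array left out, and that of Egln3 turned to -0.01 and ran from -0.02 to 0.11. The cause was not tested. The replicate numbers were not taken as pairs, since the labels do not say that arrays of the same number belong together. Same-numbered arrays did deviate together, with correlations of 0.183, 0.132 and 0.0892, and each array correlated best with its own number. Whether such arrays shared a litter or a batch was not tested, and the counts with the replicate block are those given above. The other scalings of the shift in mutant array 3 were chosen after seeing the data. Dim genes such as Adm and Car9 lie near the floor of the arrays, which limits what they can show.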
